A study of Homo sapiens with 4 samples.

Results

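The genes described here are 10 genes of the cellular response to low oxygen: the hypoxia-inducible transcription factor subunits HIF1A and EPAS1, the oxygen sensors EGLN1 and EGLN3, and the targets CA9, ADM, NDRG1, BNIP3, ANKRD37 and P4HA1. They were taken as every probe set, a group of short probes that together report 1 transcript, whose single platform gene symbol is one of these names. This gave 18 of the 54675 probe sets of the array, for 9 of the 10 genes. CA9 had no probe set under this rule and is not analysed here. Flow cytometry had separated Huh7, an established human hepatocellular carcinoma line, into cells with and without the surface protein CD133 (gene PROM1), and RNA of each population was profiled on 1 array. CD133 is often used to enrich tumour-initiating cells, and the comparison asks what sets CD133+ cells apart within the line. The groups share the line and differ in the sort, and no label names an oxygen treatment, a drug or a genetic change in either. The sources used here do not state the sort gate, its purity or how many cultures were used. Each population appears once with RMA values, which are on the log2 scale, and once with MAS5 signals, which are linear, taken as the same array summarized by different algorithms. No array was repeated, so no difference has a replicate error, and no test or p-value is given.

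In cells with enough oxygen, the EGLN enzymes hydroxylate prolines of the hypoxia-inducible factor (HIF) alpha subunits, and the VHL ubiquitin ligase then marks these subunits for destruction. When oxygen is short the alpha subunits persist, pair with ARNT and bind short DNA elements near their targets. This control acts mainly on the alpha proteins, so the level of the HIF1A or EPAS1 transcript is not a measure of HIF activity. The targets adjust metabolism, vessel tone, mitochondrial turnover and collagen modification, and in liver tumours the pathway is known from poorly perfused regions. EGLN3, and to a lesser degree EGLN1, are themselves known HIF targets that feed back on the factors.

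The HIF element has the core ACGTG or GCGTG, and the promoters of target genes with unlike values on these arrays are shown so that their cores can be set beside those values. RefSeq's table of build GRCh38.p14 held a promoter for 9 of the 10 genes, all but NDRG1. Each stretch is the 250 bases before the annotated start, 5′ to 3′ on the gene's strand, with every ACGTG or GCGTG on this strand, or its complement CACGT or CACGC, in capitals. The stretches lie at chr11:10304823-10305072 (plus strand) for ADM, chr10:73096867-73097116 (minus strand) for P4HA1, chr4:185396591-185396840 (plus strand) for ANKRD37 and chr10:131981924-131982173 (minus strand) for BNIP3.
ADM: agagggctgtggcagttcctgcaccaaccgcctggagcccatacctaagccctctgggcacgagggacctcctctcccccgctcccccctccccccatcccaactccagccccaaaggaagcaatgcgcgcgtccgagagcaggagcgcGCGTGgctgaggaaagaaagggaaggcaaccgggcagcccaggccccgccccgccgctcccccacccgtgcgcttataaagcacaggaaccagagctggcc
P4HA1: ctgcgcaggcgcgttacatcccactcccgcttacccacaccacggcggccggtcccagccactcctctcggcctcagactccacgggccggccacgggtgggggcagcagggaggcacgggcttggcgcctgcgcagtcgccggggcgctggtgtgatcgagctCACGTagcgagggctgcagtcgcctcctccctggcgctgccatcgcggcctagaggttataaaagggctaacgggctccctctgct
ANKRD37: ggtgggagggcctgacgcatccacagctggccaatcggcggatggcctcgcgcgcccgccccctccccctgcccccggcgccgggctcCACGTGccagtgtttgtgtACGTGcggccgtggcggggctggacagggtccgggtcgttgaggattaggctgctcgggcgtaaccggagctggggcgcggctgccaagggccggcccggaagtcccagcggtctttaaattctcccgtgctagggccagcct
BNIP3: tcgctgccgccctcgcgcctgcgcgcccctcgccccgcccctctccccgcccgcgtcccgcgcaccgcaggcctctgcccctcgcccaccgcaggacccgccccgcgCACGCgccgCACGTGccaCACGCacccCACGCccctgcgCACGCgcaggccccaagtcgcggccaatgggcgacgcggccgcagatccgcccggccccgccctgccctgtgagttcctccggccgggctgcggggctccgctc
ADM held 1 core, from base -101 to -97 before its start, and P4HA1 held 1, from -86 to -82. ANKRD37 held 2 separate matches, of which the farther, CACGTG, reads as ACGTG on both strands. BNIP3 held 5 separate matches between -143 and -100, and 1.85% of the 35116 promoters searched held 4 or more. At least 1 core stood in the windows of 8 of the 9 genes, EGLN3 being the exception, against 43.2% of all promoters. ACGTG itself stood in 5 of the 9, against 18.5%. These shares count promoter entries, not genes, and were not matched for base composition. The genes were picked for their part in the hypoxia response, so the contrast is no measure of enrichment. HIF1A has more than 1 annotated start in the table, and a core stood before the most upstream of them alone. A match describes letters in the window and is no measure of binding, which these arrays did not record.

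The sort and the cell line were checked on their markers. PROM1, with RMA values of 10.49 (CD133+) and 5.33 (CD133-), was 35.8-fold higher in the cells sorted for its product. The brightest probe sets of 5 hepatocyte markers (ALB, AFP, APOA1, SERPINA1 and TTR) lay between 12.23 and 14.01 on both arrays. Their RMA differences ran from -0.10 to 0.03, except for TTR at 0.55, or 1.46-fold higher in CD133+ cells. Dimmer probe sets above the brightness floor ran from -0.42 to 0.05 for ALB, -0.31 to -0.03 for APOA1 and -0.44 to -0.12 for SERPINA1. Of 6 endothelial and stromal markers 2 lay above the brightness floor and differed by 0.02 and 0.23 (log2), and of 4 blood cell markers with a probe set 3 lay above it, with differences from -0.25 to 0.00. The floor is an RMA value of 4.86, the median over all probe sets of the brighter value, and is no detection call. The part of these markers in the values below was not tested.

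The HIF alpha subunit genes were at nearly the same level in both populations. HIF1A, the subunit present in most cell types, had RMA values of 10.78 in CD133+ and 10.65 in CD133- cells, and MAS5 signals of 9775 and 8967. Its RMA difference, CD133+ minus CD133-, was 0.12 on the log2 scale, or 1.09-fold, and 24.1% of all named genes above the floor had a difference at least this high. EPAS1 encodes the other main alpha subunit, which regulates erythropoietin in liver and kidney. Its brightest probe set had RMA values of 10.38 on either array, a difference that rounded to 0.00, with MAS5 signals of 6188 and 6688. The second EPAS1 probe set, closer to the floor at 5.21 and 5.11, differed by 0.10. The third lay below the floor on both arrays, at 2.35 and 2.29, so no fold is given. In these bulk samples a change in the number of cells that express a gene and a change in RNA per cell cannot be told apart.

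As a yardstick of spread, probe sets of 1 gene were compared with each other. From 16955 such pairs above the floor, the SD of a single RMA difference was 0.17 (log2). This SD pools probe sets of all brightness levels above the floor and can include differences between transcripts of a gene. It leaves out variation between sorts, cultures and hybridizations. The differences of HIF1A and EPAS1 lay inside it.

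The oxygen sensor genes were level or slightly lower in CD133+ cells. EGLN1, the main prolyl hydroxylase that limits HIF alpha in normal oxygen, had RMA values of 8.75 and 8.78 on its brightest probe set, a difference of -0.03, and MAS5 signals of 2061 and 2062. Its other probe sets above the floor pointed in opposite directions. The brighter of these had RMA values of 7.21 and 7.09 and differed by 0.13, and the dimmer had 6.35 and 6.59 and differed by -0.24. The last EGLN1 probe set lay below the floor, at 3.94 and 3.99. EGLN3, a prolyl hydroxylase that is itself strongly induced by hypoxia in many cells, had RMA values of 5.35 in CD133+ and 5.70 in CD133- cells. This difference of -0.34, or 1.27-fold lower, was the lowest among the 9 genes, and 4.66% of all genes above the floor had a difference at least this low. The second EGLN3 probe set had RMA values of 5.39 and 5.49 and differed by -0.10. By MAS5 the order of these probe sets was turned, with differences of -0.10 for the first and -0.36 for the second. All 4 of these EGLN3 differences were negative, and their size depended on the probe set and the algorithm.

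**Figure D1:**
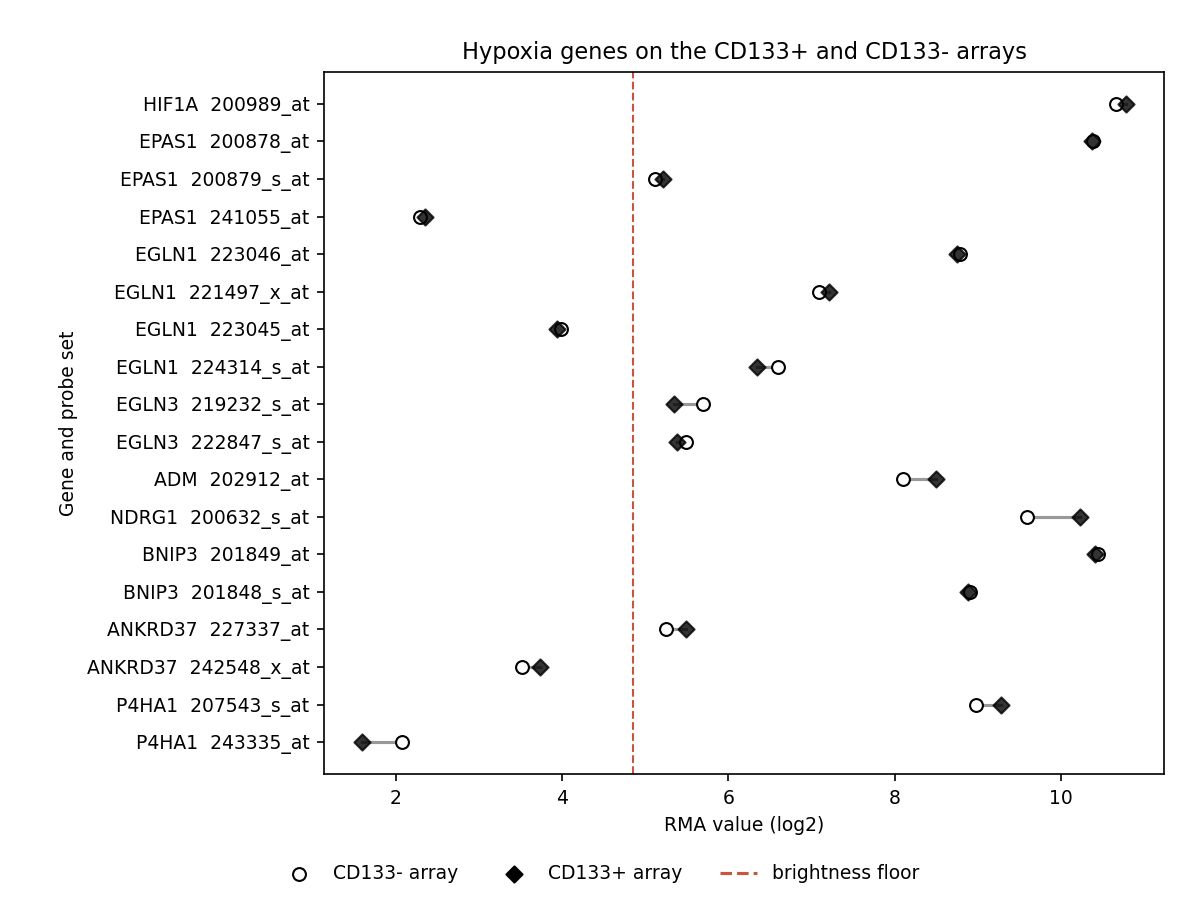
RMA values (log2, horizontal axis) of the 18 probe sets of 9 hypoxia genes on the CD133- array (open circles) and the CD133+ array (filled diamonds), with the brightness floor of 4.86 as a dashed line. The widest gap above the floor is that of NDRG1, from 9.59 to 10.22, and 4 probe sets lie below the floor on both arrays.

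Among the targets, 4 of 5 measured genes were higher in CD133+ cells, each by less than 2-fold. By any amount, 45.6% of all named genes above the floor were higher, and 5 genes are too few to weigh against that share. NDRG1, a cytoplasmic stress-response protein linked to differentiation and induced by hypoxia, showed the widest gap. Its RMA values were 10.22 in CD133+ and 9.59 in CD133- cells, and its MAS5 signals 6458 and 3909. The RMA difference of 0.63 corresponds to 1.55-fold and the MAS5 signals to 1.65-fold. Of all named genes above the floor, 3.26% had an RMA difference at least this high. Among the 1328 probe sets whose mean RMA value lay within 0.5 of that of NDRG1, 1.73% had a difference at least this large in either direction. NDRG1 was read by 1 probe set, of a type (suffix _s_at) that can match several transcripts.

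ADM, the gene of the vasodilator peptide adrenomedullin, had RMA values of 8.49 in CD133+ and 8.09 in CD133- cells. The RMA difference was 0.40, or 1.32-fold, and the MAS5 signals of 2036 and 1223 differed by 1.66-fold. A difference at least as high as the RMA value was found in 6.36% of genes, and 7.53% of 3266 probe sets of like brightness differed at least as much in either direction. P4HA1, the catalytic alpha subunit of the collagen prolyl hydroxylase, had RMA values of 9.27 and 8.98 and MAS5 signals of 3456 and 2733. These amount to 1.23-fold by RMA and 1.26-fold by MAS5, and 9.74% of genes had an RMA difference at least this high. Of 2130 probe sets of like brightness, 13.1% differed at least as much in either direction. The other P4HA1 probe set lay below both floors, at RMA values of 1.60 and 2.07, and gives no fold. ANKRD37, a small ankyrin repeat protein induced by HIF, lay near the floor at RMA values of 5.49 and 5.24. Its RMA difference was 0.24 and its MAS5 difference, from signals of 281 and 183, was 0.62. An RMA difference at least this high was found in 12.5% of genes, and 25.6% of the 6036 probe sets within 0.5 of its mean RMA value differed at least as much in either direction. The second ANKRD37 probe set, below the floor, had RMA values of 3.74 and 3.52. These 4 genes were higher on the CD133+ array by both algorithms, and ADM and ANKRD37 were those whose size moved with the algorithm.

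BNIP3 was the 1 measured target with no gap in the CD133+ direction. It encodes a mitochondrial outer membrane protein that promotes mitophagy and is a widely used HIF target. Its brightest probe set had RMA values of 10.41 in CD133+ and 10.44 in CD133- cells, a difference of -0.03, and MAS5 signals of 5385 and 5282. The second probe set had RMA values of 8.88 and 8.91, again a difference of -0.03, and MAS5 signals of 2322 and 2579. Of all genes, 86.1% had an RMA difference at least as large in either direction as that of the brightest probe set. The promoter of BNIP3 shown above held the most cores of the 9 genes with a RefSeq promoter, and that of ADM held 1. Whether core number bears on the differences was not tested.

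**Figure D2:**
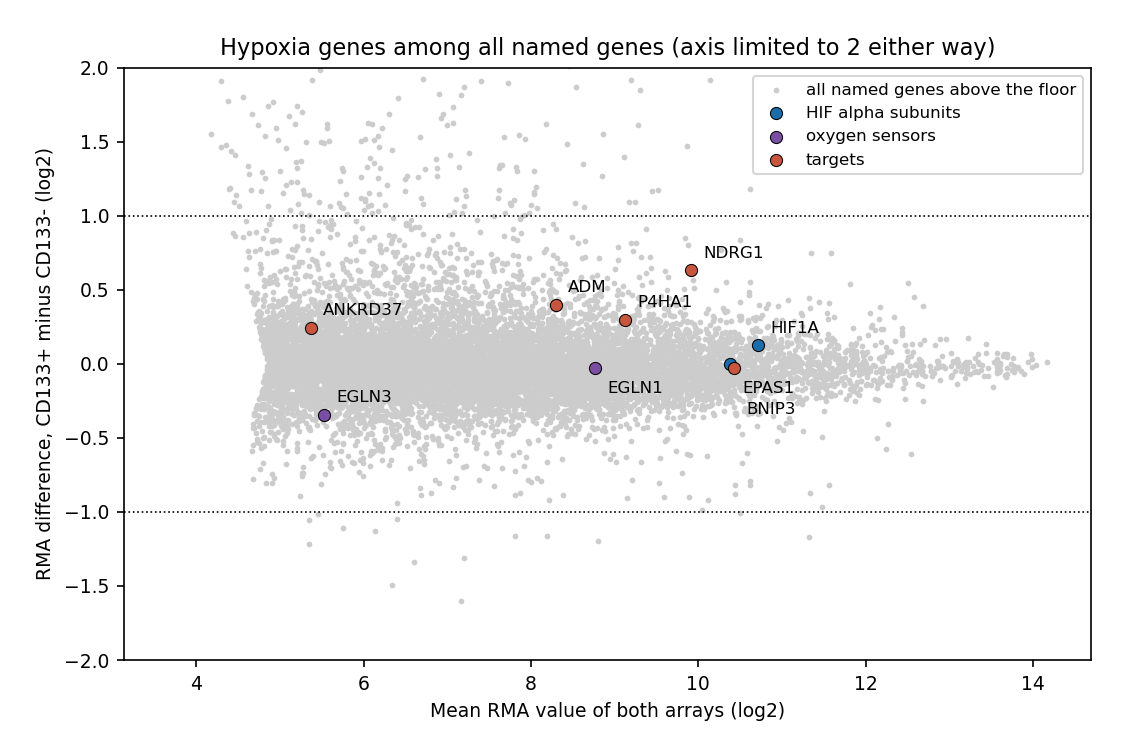
RMA difference CD133+ minus CD133- (log2, vertical axis) against the mean RMA value of both arrays (log2, horizontal axis) for 12899 named genes above the floor (grey) and the 9 hypoxia genes by their brightest probe set (coloured by role). Dotted lines mark 2-fold, which none of the 9 reached, and NDRG1 at 0.63 lies highest among them.

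Over all probe sets of these genes, 14 of 18 lay above the floor, all on both arrays, and these covered all 9 genes. None of the 14 differed by 2-fold in either direction by RMA, against a background of 1.38% of the 23130 named probe sets above the floor. By MAS5, 0 of 14 did so as well, against 6.35%. Against such small shares a count of 0 among 14 is no result about these genes. At 1.5-fold, 1 of 14 was higher by RMA (NDRG1, background 3.17%) and 3 were higher by MAS5 (NDRG1, ADM and ANKRD37, background 10.1%). The direction of 13 of the 14 was the same by both algorithms, the exception being the brightest BNIP3 probe set, with a MAS5 difference of 0.03. Both algorithms read the same arrays, so this is no independent check.

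By brightest probe set, 5 of the 9 genes were higher and 4 lower, while 45.6% of the 12899 named genes above the floor were higher. The median RMA difference of the 9 genes was 0.12, against -0.01 for all named genes. Beyond the probe-set SD of 0.17, 4 of the 9 were higher (NDRG1, ADM, P4HA1 and ANKRD37), where the background is 19%. On the lower side 1 lay beyond it (EGLN3), where the background is 18.9%. With 9 genes, such counts are no result about the genes as a group. The 5 measured targets had a median of 0.30, and the 4 factors and sensors lay between -0.34 and 0.12. Probe sets without the suffix that marks possible cross-matching remained for 6 of the 9 genes, and NDRG1, P4HA1 and EGLN3 rest on marked ones.

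**Figure D3:**
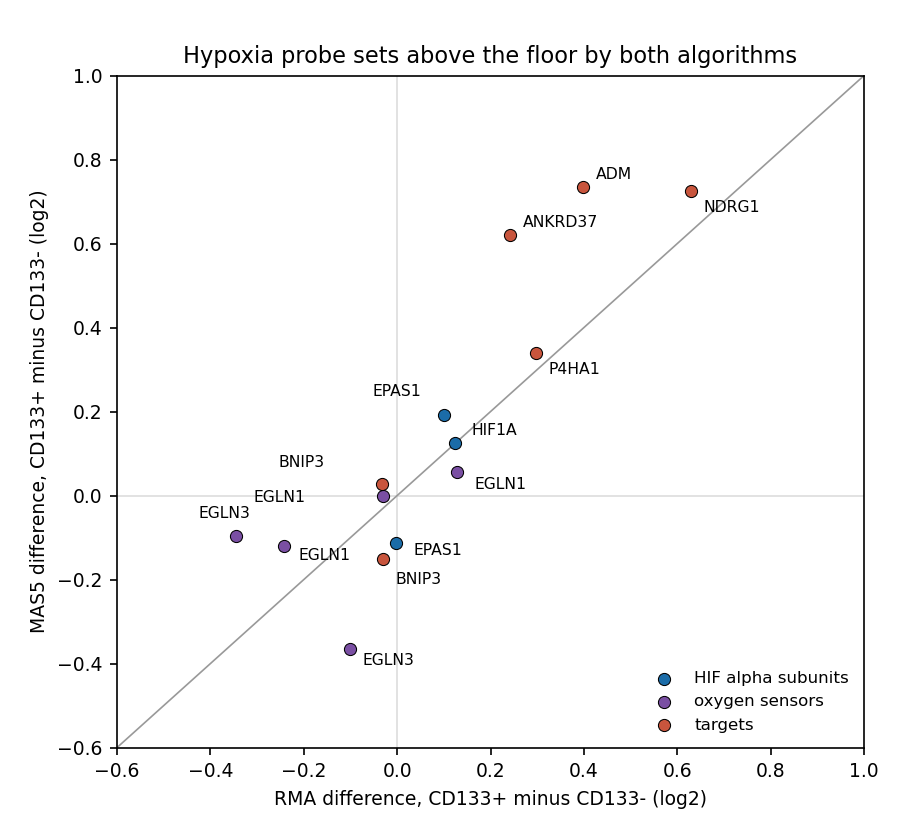
MAS5 difference (vertical axis) against RMA difference (horizontal axis), both CD133+ minus CD133- on the log2 scale, for the 14 probe sets of hypoxia genes above the floor, with the line of equal values. ADM (0.40 by RMA and 0.73 by MAS5) and ANKRD37 (0.24 and 0.62) lie well above the line, and both BNIP3 probe sets lie close to 0 on the RMA axis.

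The other parts of the oxygen-sensing machinery differed about as little as genes in general, with a median absolute RMA difference of 0.11 against 0.13 for all named genes. Of 17 listed HIF partners and regulators 14 lay above the floor, 7 higher and 7 lower in CD133+ cells. Their median RMA difference was -0.02, with a range from -0.17 for SIAH2, a ubiquitin ligase that acts on EGLN proteins, to 0.18 for VHL. None reached 2-fold, against 1.65% of all named genes higher and 0.116% lower, shares at which 0 of 14 is no result about the list. ARNT, the shared beta subunit, had RMA values of 6.28 and 6.43 on its brightest probe set, a difference of -0.16, while another above the floor differed by 0.13. By MAS5 the brightest ARNT probe set differed by 0.24, so the sign depended on the algorithm. HIF1AN, the asparagine hydroxylase that blocks coactivator binding, had RMA values of 7.68 and 7.63. EGLN2, the remaining prolyl hydroxylase of the family, was below the floor at 4.06 and 4.35.

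Most glucose metabolism targets of HIF differed by less than the probe-set SD. Of 18 genes above the floor 5 were higher and 13 lower by any amount, where 45.6% of all named genes were higher, and the median RMA difference was -0.04. Beyond the probe-set SD of 0.17, 4 were higher (ENO2, HK1, PGK1 and ALDOC) and 1 lower (PDK1), against backgrounds of 19% and 18.9%. With 18 genes, such counts are no result about the list. HK1, the hexokinase of most tissues, differed by 0.54, from RMA values of 5.72 and 5.18, near the floor. The MAS5 signals of HK1 were 106.2 and 77.7, of which the CD133- signal lay below the MAS5 floor of 91.8. PGK1, a phosphoglycerate kinase and well-known HIF target, differed by 0.33, from RMA values of 10.93 and 10.60. Its other probe sets above the floor differed by 0.04 to 0.39. ALDOC, an aldolase, differed by 0.29. ENO2, a neuronal enolase, had the highest RMA difference with 0.67, from RMA values of 5.09 and 4.42. Its CD133- value lay below the floor, so the safer statement is at least 1.18-fold higher. PDK1, a kinase that inhibits pyruvate dehydrogenase, was lowest, with RMA values of 7.88 and 8.15 and a difference of -0.27. Its second probe set above the floor differed by -0.23. SLC2A1, the glucose transporter of most cells, had RMA values of 6.70 and 6.85, and LDHA, the lactate dehydrogenase subunit of glycolytic cells, had 12.58 and 12.59. The SLC2A1 and LDHA differences of -0.15 and -0.01 lay inside the probe-set SD.

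Targets outside glucose metabolism went both ways. Of 25 genes above the floor 15 were higher and 10 lower by any amount, where 45.6% of all named genes were higher, with a median of 0.07. Beyond the probe-set SD, 6 were higher and 6 lower, against backgrounds of 19% and 18.9%. With 25 genes, such counts are no result about the list. LOX, the lysyl oxidase that crosslinks collagen, was highest, with RMA values of 8.89 and 8.31 and a difference of 0.58. Its other probe sets differed by 0.87 and 0.84. VEGFA, the main angiogenic growth factor, had RMA values of 7.84 and 7.35 on its brightest probe set. All 4 VEGFA probe sets above the floor were higher in CD133+ cells, by 0.10 to 0.49. STC2, a secreted glycoprotein hormone, was lowest with -0.38, from RMA values of 7.10 and 7.49, and its other probe set differed by -0.44. BNIP3L, the closest relative of BNIP3, had RMA values of 9.41 and 9.33, a difference of 0.08, while its second probe set differed by 0.34.

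**Figure D4:**
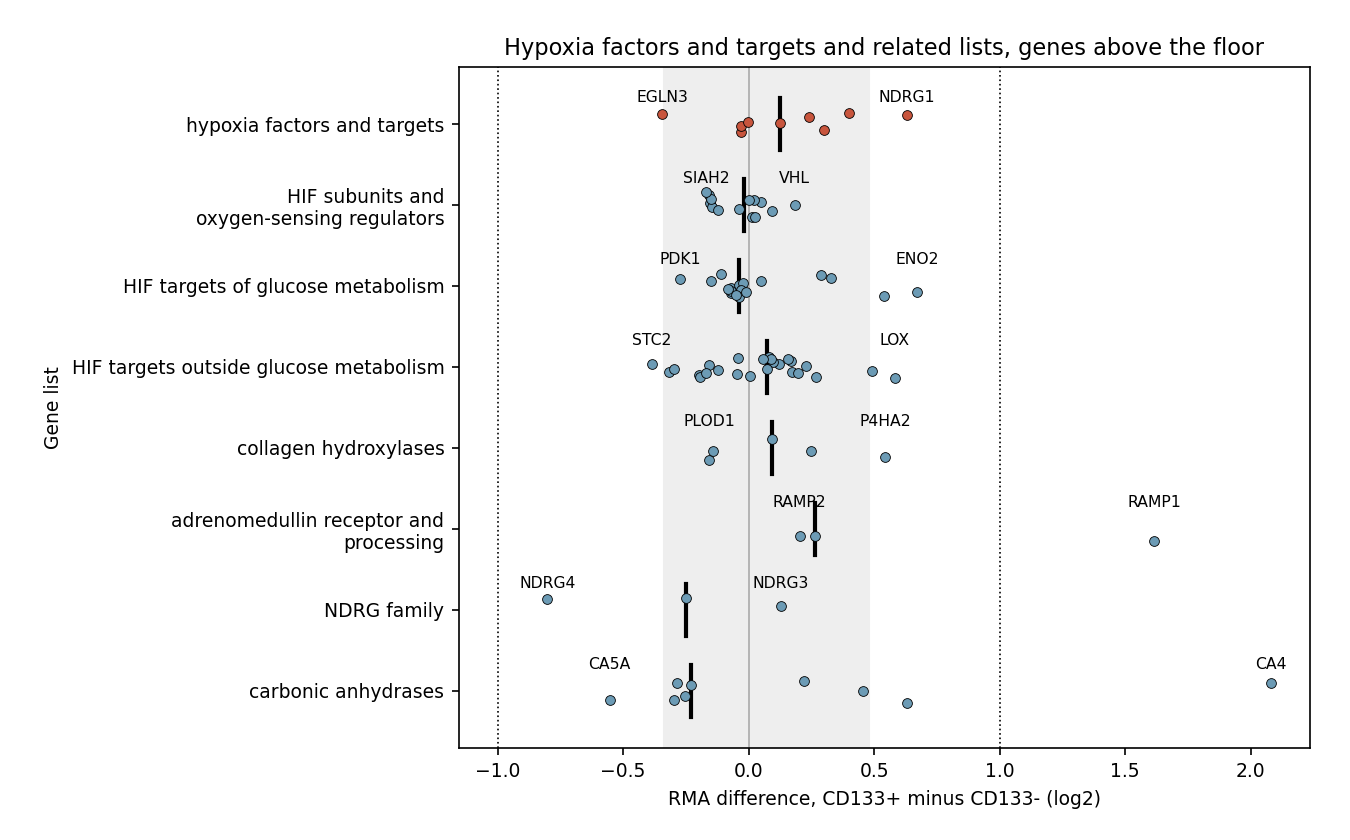
RMA difference CD133+ minus CD133- (log2, horizontal axis) of the 9 hypoxia genes (red) and of the genes of 7 related lists (blue), each gene by its brightest probe set where this lay above the floor. Black bars are medians, dotted lines mark 2-fold, the grey band spans the 5th to the 95th percentile of all named genes above the floor (-0.34 to 0.48), and RAMP1 and CA4 alone lie beyond 2-fold.

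The widest RMA differences in the related lists were those of CA4, RAMP1 and NDRG4, relatives or partners of the targets. RAMP1, an accessory protein of the calcitonin receptor family that forms the receptor of calcitonin gene-related peptide, had RMA values of 8.99 in CD133+ and 7.37 in CD133- cells, or 3.07-fold, and MAS5 signals of 1589 and 601. RAMP2, which turns the receptor CALCRL into an adrenomedullin receptor, had RMA values of 6.45 and 6.25, and CALCRL itself was below the floor at 2.96 and 2.81. Of the collagen hydroxylase genes 5 lay above the floor, from PLOD1 at -0.16 to P4HA2 at 0.54. P4HA2, the sister subunit of P4HA1, had RMA values of 8.47 and 7.93 and MAS5 signals of 2131 and 1334. A second P4HA2 probe set above the floor differed by 0.07.

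Carbonic anhydrases, the family of CA9, went in opposite directions. CA4, a membrane-anchored carbonic anhydrase, had RMA values of 8.73 in CD133+ and 6.65 in CD133- cells, or 4.23-fold, and its second probe set differed by 1.77 (log2). CA12, like CA9 a transmembrane carbonic anhydrase induced by hypoxia, had RMA values of 8.88 and 9.17, a difference of -0.30. Its other probe sets above the floor differed by -0.50 to -0.24, apart from a probe set near the floor (RMA values of 5.22 and 5.10) that differed by 0.11. In all, 4 of 9 carbonic anhydrases above the floor were higher and 5 lower by RMA, and their median RMA difference was -0.23. The MAS5 floor kept 8 carbonic anhydrases, with CA1 added and CA5B and CA7 left out, and their median MAS5 difference was 0.36. These medians cover different genes, so they do not show a change of sign with the algorithm. In the NDRG family, NDRG4 had RMA values of 6.49 and 7.30, a difference of -0.80, and NDRG3 differed by 0.13. Over the 7 lists together, 38 of 76 genes above the floor were higher and 38 lower. RAMP1 and CA4 were at least 2-fold higher and none was 2-fold lower, which is 2.63% of the 76 against 1.77% of all named genes in either direction. At 1.5-fold, 5 of the 76 were called, or 6.58% against 4.68%, and they were NDRG4 on the lower side and CA13, ENO2, RAMP1 and CA4 on the higher, although against the floor ENO2 was only known to be at least 1.18-fold higher. By MAS5, with a floor at a signal of 91.8 that keeps a partly different 76 genes, 8 reached 2-fold, 6 higher and 2 lower, or 10.5% against 6.18%. Of these 8, 4 (SLC2A3, CA1, ARNT2 and ENO2) had a CD133- signal below that floor and were at least 1.01-fold to at least 1.20-fold higher against it.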

How the data were processed

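Per the labels, 2 of the 4 deposited columns are MAS5 signal intensity on a linear scale and the others are RMA values in log2. The submitters' processing notes name MAS5, RMA and GCOS and list no version, and which arrays were normalized together is not stated in the sources used here. Column medians were 77.1 (CD133+) and 77.0 (CD133-) for MAS5 and 4.77 and 4.76 for RMA, so a global shift would not show.

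Platform annotation gave 41097 probe sets exactly 1 symbol, 1801 several and 11777 none. Entrez numbers updated the symbols to those of GRCh38.p14 (41043 matched). For each gene the probe set with the highest mean RMA value was used. Differences are CD133+ minus CD133- in log2. Scripts used Python 3.11.15, pandas 2.3.3 and numpy 2.4.6, and were tested on simulated data.

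The genes and lists were chosen with earlier results of these data known. Named list genes are those of at least 2-fold, otherwise each list's extremes, plus genes picked for their role; RAMP2, CALCRL, CA13, HK1, PGK1, ALDOC, SLC2A3, CA1 and ARNT2 were named after their values were seen. With 1 array per population no test was possible, and the small number of arrays limits precision throughout.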

Additional observations from a re-analysis of the deposited data

How the results depend on the processing

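The median RMA difference of the hypoxia genes, 0.12, is the value of HIF1A, which has 1 probe set. It was 0.12 on MAS5 signals as well and 0.06 over the 6 genes left without cross-matching probe sets. Changing the floor, which all 9 brightest probe sets exceed on both arrays, and centring, which subtracted 0, could not move it. No probe set above the floor was at least 2-fold different under any of the 6 alternatives. At 1.5-fold, 1 probe set was called by RMA and 3 by MAS5. Of the 76 related genes, 2 were at least 2-fold different by RMA, 8 by MAS5, whose floor keeps a partly different 76, (background 6.18%) and 5 at 1.5-fold by RMA (background 4.68%). Of 27 recomputed values of single hypoxia genes, 14 could not move by construction (centring by 0, or a mean over 1 probe set). Of the other 13, 10 moved by less than the probe-set SD of 0.17 and 3 by more. Those 3 were MAS5 values, of ADM (0.73), ANKRD37 (0.62) and EGLN3 (-0.10), and the cause was not tested. The sign turned for BNIP3 by MAS5 (0.03) and for EPAS1 with the mean over probe sets (0.05), both close to 0. The MAS5 spread between probe sets of a gene was 0.43, wider than that of RMA. The medians of the HIF regulator list (0.00 against -0.02) and of the collagen hydroxylases (-0.02 against 0.09) changed sign without a floor, as did that of the carbonic anhydrases (0.09 against -0.23). No paired analysis was possible because each population was measured on 1 array.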
